A study of Canis lupus familiaris with 25 samples.

Results

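The report describes 10 genes whose proteins bring fatty acids into cells and hold them there, in canine tumors of the anal region. The genes were chosen by symbol as those of fatty acid uptake and binding, namely LPL and CD36 at the cell surface, the transport proteins SLC27A1 and SLC27A4, the binding proteins FABP3, FABP4 and FABP5, and the long-chain acyl-CoA synthetases ACSL1, ACSL4 and ACSL5. All 10 were among the 24532 genes of the count table. Total RNA of formalin-fixed, paraffin-embedded (FFPE) tumor sections from dogs was read with QuantSeq 3′, a method that sequences the 3′ ends of transcripts. Of the samples, 10 were hepatoid gland adenomas (HGA), benign tumors of modified sebaceous glands of the perianal skin, 11 primary apocrine gland anal sac adenocarcinomas (AGASAC), malignant tumors of the glands in the anal sac wall, and 4 AGASAC metastases to the sublumbal lymph nodes in the dogs of primary tumors 1 to 4. No sample was treated and no gene was altered. Dogs with HGA were 8 to 14 years old, 5 of 10 were female and 4 of 10 neutered. Dogs with AGASAC were 8 to 12.5 years old, 5 of 11 were female and 9 of 11 neutered, so neutering and tumor type were unevenly mixed. Tissue next to the tumor was trimmed away by the authors before RNA was extracted.

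Fatty acids reach a cell either free in the blood, bound to albumin, or inside lipoproteins, from whose triglycerides lipoprotein lipase frees them. CD36 and the transport proteins of the SLC27 family help them across the membrane, the small FABP proteins carry them through the cytosol, and acyl-CoA synthetases join them to coenzyme A, which traps them in the cell and makes them usable for triglycerides, membranes, wax esters or oxidation. Sebaceous glands are known for making and storing large amounts of lipid, and hepatoid gland cells are a modified form of them, whereas the apocrine glands of the anal sac are simple glands lined by a single layer of cells.

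Levels are given as CPM, the counts of a gene relative to all counts of the sample, scaled by TMM (trimmed mean of M-values) factors over all 25 samples. The samples held 1562347 to 6389555 counts in HGA, 2581453 to 4218340 in AGASAC primary tumors and 2857541 to 3289546 in the metastases, and 3 counts, the most that a count of 0 allows, corresponded to 0.543 to 1.84 CPM. Because a transcript gives reads from its 3′ end only, CPM does not grow with transcript length. Fold changes are log2 fold changes (log2FC) with their standard error (SE) from the quasi-likelihood test of edgeR, and a gene was called where the p adjusted after Benjamini and Yekutieli was no more than 0.05 and the log2FC at least 1 in either direction. The tumor labels went with the epithelial markers. The 8 genes of stratified epithelium and sebaceous gland, led by KRT14, KRT79 and KRT5, summed to 4611 to 15276 CPM in HGA and to at most 212 CPM in AGASAC primary tumors, and the 6 genes of simple glandular epithelium, led by PIP, EPCAM and KRT19, summed to 409 to 731 CPM in HGA and to 5392 to 10188 CPM in AGASAC primary tumors. Of the stratified and sebaceous genes, 5 of the 6 tested were called higher in HGA, but not every gene followed the sum. ELOVL3 averaged 5.67 CPM in HGA and 6.10 CPM in AGASAC primary tumors, and AWAT1 0.549 and 0 CPM. MC5R ran from 1.81 to 731 CPM in HGA and from 2.29 to 201 CPM in AGASAC primary tumors. It made up 201 of the 212 CPM in AGASAC 4. HGA 10 stood apart from the other HGA. Its median correlation with them over 10300 genes was 0.735, against 0.801 to 0.907 for the other 9. It had the lowest sum of stratified and sebaceous markers (4611 CPM), with only 39.1 CPM of the sebaceous keratin KRT79. The stratified markers were not low in general. In HGA 10, KRT14 at 2615 CPM and KRT5 at 1371 CPM lay within the range of the other HGA. Its TP63, at 532 CPM, was the highest of the HGA. It also had the highest sum of proliferation markers (1013 CPM, led by PCNA, TOP2A and BIRC5). HGA 10 was also the only HGA from a neutered male and the only HGA of its RNA extraction batch. It was the only one from its series of sequencing file names as well, so results that rest on it are given with and without it.

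In HGA against AGASAC primary tumors, all 10 genes had a positive log2FC and 7 were called higher in HGA, with 0 called lower. They were LPL, FABP4, FABP5, SLC27A1, ACSL1, ACSL4 and ACSL5. CD36, FABP3 and SLC27A4 did not pass the test. Over all 12070 genes tested, 25.1% were called and 12.6% were called higher in HGA. The median log2FC of the 10 genes was 2.76, against −0.03 for all genes tested. Of the genes called, 50.2% were higher in HGA with TMM and 32.8% with library size alone, which moved the median of all genes to −0.33. With library size alone 6 of the 10 genes were called, without SLC27A1. In 5 of the 10 genes, LPL, FABP4, FABP5, ACSL1 and ACSL5, the values of HGA and AGASAC primary tumors did not overlap, which was so for 9.13% of all genes tested. The genes were chosen with earlier results of these data known, so these counts describe them and are no independent support for a direction.

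**Figure D1:**
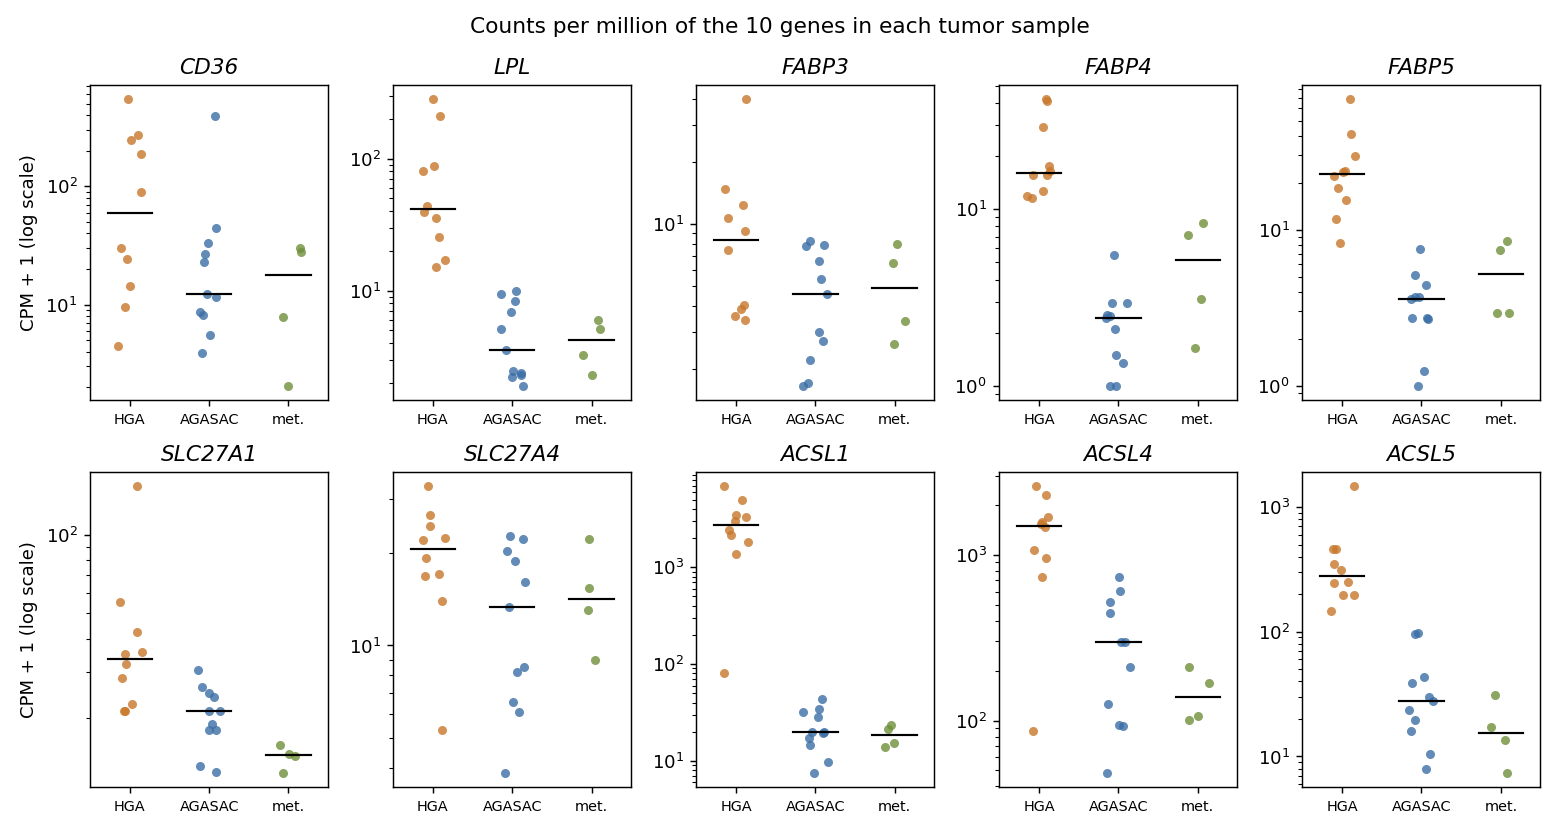
Each panel plots 1 gene, with a point for every HGA (10), AGASAC primary tumor (11) and AGASAC metastasis (4, labelled met.), as CPM plus 1 on a log axis, and a line at the group median. ACSL1 lies at 1364 CPM or more in 9 HGA and at 80.0 CPM in HGA 10, while every AGASAC sample is at 43.0 CPM or less, and the points of CD36 and SLC27A4 overlap between the groups.

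The acyl-CoA synthetases had the highest mean levels in HGA, and ACSL1 had the largest log2FC. ACSL1 supplies activated long-chain fatty acids for triglyceride synthesis and oxidation in many lipid-rich tissues. Its level in HGA ran from 80.0 CPM through a median of 2718 CPM to 6932 CPM, and in AGASAC primary tumors from 6.56 CPM through 18.6 CPM to 43.0 CPM. The lowest HGA value was thus above the highest AGASAC value. The means were 2962 ± 1926 CPM (SD, n = 10) and 21.4 ± 11.1 CPM (SD, n = 11), and the log2FC was 7.14 (SE 0.55, adjusted p = 4.05e-09), which corresponds to 141-fold. HGA 10 was the lowest HGA by far, as the next was at 1364 CPM, and without it the log2FC was 7.29 (adjusted p = 3.07e-11).

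ACSL4, which prefers arachidonic acid and related polyunsaturated fatty acids, ran from 85.1 CPM through a median of 1497 CPM to 2600 CPM in HGA and from 47.5 CPM through 297 CPM to 736 CPM in AGASAC primary tumors. HGA 10 was again the lowest and lay inside the range of AGASAC, whereas HGA 4, the next lowest at 730 CPM, was just under the highest AGASAC. The log2FC was 2.18 (SE 0.47, adjusted p = 0.00577) and 2.32 without HGA 10 (adjusted p = 0.000634). Among these synthetases ACSL4 thus had the smallest difference between the tumors and the highest mean in AGASAC, 315 ± 232 CPM (SD, n = 11).

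ACSL5 resides on mitochondria and the endoplasmic reticulum. It ran from 146 CPM through a median of 281 CPM to 1475 CPM in HGA and from 6.86 CPM through 27.0 CPM to 96.8 CPM in AGASAC primary tumors, without overlap. Here HGA 10 was the highest, and the other 9 HGA reached at most 463 CPM. The log2FC was 3.52 (SE 0.49, adjusted p = 2.70e-05) and 3.02 without HGA 10 (adjusted p = 2.42e-05).

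The make-up of the synthetase reads differed as well. ACSL1 made up 56.8% ± 20.6 of the summed CPM of ACSL1, ACSL4 and ACSL5 in HGA (SD, n = 10), against 8.39% ± 7.40 in AGASAC primary tumors (SD, n = 11) and 10.4% ± 3.86 in the metastases (SD, n = 4). ACSL4 held 28.9% ± 12.0, 77.9% ± 20.97 and 80.8% ± 6.04 of it. HGA 10 departed from the other HGA here too, with 4.88% of ACSL1 and 89.9% of ACSL5. The only AGASAC sample in which ACSL5 had the largest share was AGASAC 7, with 54.4%. The shares restate the levels above and were not tested on their own.

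**Figure D2:**
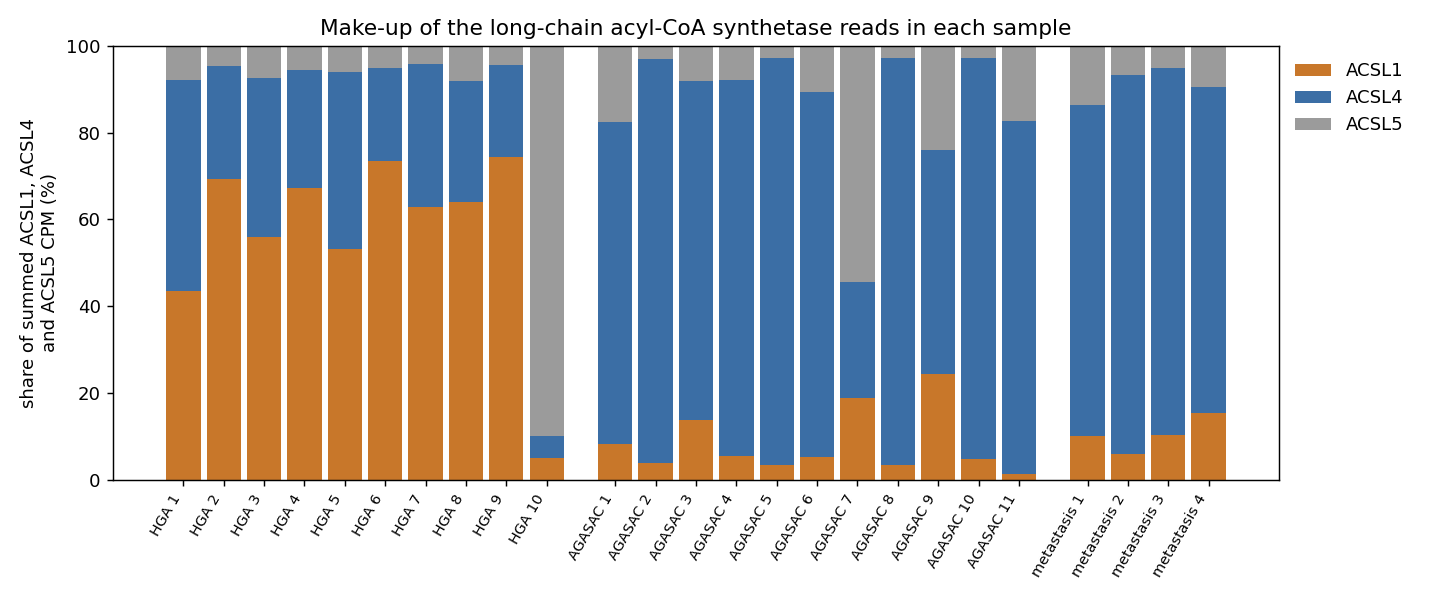
Stacked bars give, for each of the 25 samples, the share of ACSL1, ACSL4 and ACSL5 in their summed CPM, in percent. ACSL1 is the largest part in 8 of the 10 HGA, ACSL4 in HGA 1 and in 14 of the 15 AGASAC samples, and ACSL5 in HGA 10 and AGASAC 7.

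At the cell surface, LPL was called higher in HGA and CD36 was not called. LPL encodes lipoprotein lipase, which acts on the vessel wall and can be made by many cell types. It ran from 14.2 CPM through a median of 40.8 CPM to 281 CPM in HGA and from 0.904 CPM through 2.58 CPM to 8.96 CPM in AGASAC primary tumors. The groups did not overlap, although the 3 HGA with the most LPL, HGA 6 (281 CPM), HGA 9 (209 CPM) and HGA 2 (86.3 CPM), set much of the HGA mean of 82.7 ± 90.4 CPM (SD, n = 10). The log2FC was 4.41 (SE 0.59, adjusted p = 1.47e-05).

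CD36, a scavenger receptor and fatty acid translocase, varied widely within both tumor types. It ran from 3.44 CPM through a median of 59.1 CPM to 543 CPM in HGA and from 2.87 CPM through 11.4 CPM to 395 CPM in AGASAC primary tumors. AGASAC 11 alone held the 395 CPM, and the other 10 AGASAC reached at most 43.4 CPM. The log2FC was 1.50 (SE 0.86, adjusted p = 1). Without AGASAC 11 it was 3.08 (SE 0.74, adjusted p = 0.0166) and CD36 was called higher in HGA, so 1 tumor decided this result. In AGASAC 11, LPL was at 1.21 CPM, FABP4 at 0.486 CPM and FABP5 at 0.243 CPM, all below the AGASAC median, while ACSL5 at 94.5 CPM was the second highest of the AGASAC primary tumors and FABP3 was at 6.80 CPM and ACSL4 at 447 CPM, above theirs.

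Among the cytosolic binding proteins, FABP4 and FABP5 were higher in HGA at low levels. FABP4 is the fatty acid binding protein known from adipocytes, macrophages and capillary endothelium. It ran from 10.6 CPM through a median of 15.0 CPM to 41.1 CPM in HGA and from 0 CPM through 1.43 CPM to 4.51 CPM in AGASAC primary tumors, with 0 counts in AGASAC 7 and AGASAC 8. The log2FC was 3.92 (SE 0.49, adjusted p = 7.05e-06).

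FABP5, the epidermal fatty acid binding protein of keratinocytes and sebaceous cells, ran from 7.23 CPM through a median of 21.7 CPM to 67.4 CPM in HGA. In AGASAC primary tumors it ran from 0 CPM in AGASAC 7 through 2.61 CPM to 6.53 CPM, below every HGA. The log2FC was 3.34 (SE 0.47, adjusted p = 3.54e-05). Counts behind these values were small, at most 138 for FABP4 and 125 for FABP5 in any HGA and at most 13 and 20 in any AGASAC primary tumor, so the AGASAC levels are near the limit of detection.

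FABP3, the heart and muscle type, ran from 2.43 CPM through a median of 7.34 CPM to 39.0 CPM in HGA and from 0.654 CPM through 3.59 CPM to 7.24 CPM in AGASAC primary tumors. The groups overlapped, and HGA 9 held the 39.0 CPM, with the next HGA at 13.7 CPM. The log2FC was 1.45 (SE 0.53, adjusted p = 0.273).

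The transport proteins differed least. SLC27A1, also called FATP1, and SLC27A4, also called FATP4, both take up long-chain fatty acids and carry an acyl-CoA synthetase activity of their own. SLC27A1 ran from 20.2 CPM through a median of 32.5 CPM to 152 CPM in HGA and from 11.5 CPM through 20.2 CPM to 29.3 CPM in AGASAC primary tumors. The log2FC was 1.18 (SE 0.32, adjusted p = 0.0369). The 152 CPM were those of HGA 10, and without it the log2FC was 0.71 (SE 0.22, adjusted p = 0.0860), so the call was lost without that tumor. It was also lost in 10 other fits that each left out a different tumor and with RNA extraction batch as a term, where the log2FC was 0.56.

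SLC27A4 ran from 4.30 CPM in HGA 10 through a median of 19.6 CPM to 31.9 CPM in HGA and from 2.87 CPM through 12.4 CPM to 21.7 CPM in AGASAC primary tumors. The log2FC was 0.66 (SE 0.34, adjusted p = 1), and the groups overlapped over most of their range.

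Among the HGA, HGA 10 was thus lowest in 5 of the genes (CD36, LPL, SLC27A4, ACSL1 and ACSL4) and the highest in SLC27A1 and ACSL5. Leaving it out, 6 of the 10 genes were called, while the number called over all genes tested was 3373, against 3032 with it. Leaving out both HGA 10 and AGASAC 11, an alternative chosen after seeing the data, 7 of the 10 were called, with CD36 in place of SLC27A1.

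RNA of other cell types moved with some of these results, and their part in the results was not tested. In bulk samples fewer cells of a type and less RNA per cell cannot be told apart. The 10 endothelial genes, led by VWF, PECAM1 and ESAM, summed to 245 to 670 CPM in HGA, 104 to 434 CPM in AGASAC primary tumors and 84.7 to 221 CPM in the metastases, and 3 of the 8 tested were called higher in HGA. ESAM went the other way than the rest of the list, with means of 15.4 CPM in HGA and 56.8 CPM in AGASAC primary tumors. It made up 267 of the 434 CPM in AGASAC 4, the highest AGASAC sum. Endothelium is a known source of FABP4 and CD36 and displays LPL. The 10 adipocyte genes summed to 211 to 1515 CPM in HGA, 27.7 to 422 CPM in AGASAC primary tumors and 26.1 to 98.1 CPM in the metastases, and of the 4 tested 2 were called higher in HGA and 1 lower. The HGA sum was mostly CIDEC, a lipid droplet protein that sebaceous cells also make, with a mean of 399 CPM, followed by LIPE with 40.8 CPM, a lipase that is also in the list of fatty acid handling genes, while ADIPOQ, the adipocyte hormone adiponectin, averaged 5.41 CPM in HGA and 94.0 CPM in AGASAC primary tumors. LEP, ADRB3 and AQP7 each averaged under 0.5 CPM in every group. The other 4 genes of the list had higher means in HGA than in AGASAC primary tumors, PLIN4 with 34.8 against 0.774 CPM, CFD with 33.3 against 13.8 CPM, PCK1 with 9.44 against 2.71 CPM and PLIN1 with 6.93 against 0.245 CPM. HGA 2 set most of the PLIN1 mean, at 52.0 CPM, followed by HGA 8 at 9.45 CPM, and the remaining HGA reached at most 2.35 CPM. ADIPOQ was highest in AGASAC 11, at 399 CPM, the tumor that was also highest in CD36 among the AGASAC samples.

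Macrophages, which express CD36, LPL and FABP4, had the opposite order. Their 10 genes, led by C1QA, C1QC and C1QB, summed to 107 to 349 CPM in HGA and 208 to 607 CPM in AGASAC primary tumors, and 2 of 10 were called lower in HGA. The 12 skeletal muscle genes, led by ACTA1, TTN and CKM, summed to 3.39 to 33.3 CPM in HGA, 9.72 to 1186 CPM in AGASAC primary tumors and 4.15 to 9.41 CPM in the metastases, and all 3 tested were called lower in HGA. Muscle expresses FABP3, CD36 and LPL. AGASAC 5, which had the most muscle RNA, had 6.94 CPM of FABP3, 21.9 CPM of CD36 and 4.16 CPM of LPL.

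Within RNA extraction batches the direction held while the calls thinned. Batches 5, 6 and 8 held at least 2 tumors of each type, and all 7 genes called over the 21 tumors had a positive log2FC in each of them. ACSL1 was called in all 3. In batch 5, 2 of the genes were called, in batch 6, 3 and in batch 8, 1. With batch as a term over the batches that hold both tumors, 6 were called, all but SLC27A1. Within the series of sequencing file names that holds 9 HGA and 3 AGASAC primary tumors, the same 6 genes were called.

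Between metastases and the primary tumors of the same 4 dogs, none of the 8 genes that could be tested was called. FABP4 and FABP5 had too few counts to be tested. With edgeR 0 of 12629 genes (0%) were called, and 145 genes had an unadjusted p under 0.05. DESeq2 called 5 genes and edgeR with the dog as a replicate block called 1, and none of the members was among them. The main edgeR fit had no term for the dog, so its SEs and adjusted p did not use the pairing. In that fit the log2FC of the 8 genes, metastasis against primary tumor, lay between −0.46 and 0.45, with SEs of 0.28 to 0.92. These intervals are wide, and the missing calls do not show that the tissues had equal levels. Of the T cell markers, CD3E averaged 10.9 ± 2.64 CPM in the lymph node metastases and 4.80 ± 1.48 CPM in the primary tumors (SD, n = 4 each) and CD3G 12.0 ± 1.21 and 4.25 ± 2.43 CPM, without overlap in either gene. Neither was called with edgeR (adjusted p = 1), and their part in the levels of the 8 genes was not tested. CD3E and CD3G were named after their values were seen, and the T cell genes CD2, CD3D and CD5 overlapped between the tissues. CD2 measured 6.49, 7.96, 7.72 and 4.47 CPM in metastases 1 to 4 against 8.74, 2.61, 5.04 and 9.17 CPM in their primary tumors. In dog 4, CD3D was at 1.60 CPM in the metastasis and 8.62 CPM in the primary tumor.

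Dog by dog, SLC27A1 was lower in the metastasis than in the primary tumor in 4 of 4 dogs, at 11.4, 13.3, 13.5 and 14.7 CPM against 11.5, 18.0, 20.2 and 23.1 CPM, and its log2FC was −0.46 (SE 0.28, adjusted p = 1). ACSL1 measured 22.4, 14.3, 12.9 and 20.4 CPM in the metastases of dogs 1 to 4 and 13.6, 8.82, 16.3 and 18.6 CPM in their primary tumors. It was higher in 3 of 4 dogs. ACSL4 measured 168, 210, 106 and 100 CPM in the metastases against 125, 210, 92.5 and 299 CPM, so it was lower in dog 4, higher in dogs 1 and 3 and nearly equal in dog 2. CD36 was lower in 3 of 4 metastases, at 6.81, 1.06, 26.7 and 29.4 CPM against 10.5, 4.57, 25.8 and 43.4 CPM. FABP4 was higher in 3 of 4, at 6.16, 2.12, 0.643 and 7.35 CPM against 1.51, 1.96, 1.48 and 1.11 CPM. FABP5 was higher in 2 dogs and lower in 2, at 1.95, 7.43, 1.93 and 6.39 CPM against 2.71, 2.61, 4.15 and 1.67 CPM. The other genes had dogs on both sides as well. FABP3 ran from 1.62 to 7.03 CPM in the metastases, SLC27A4 from 7.96 to 21.2 CPM, LPL from 1.30 to 5.04 CPM and ACSL5 from 6.43 to 30.2 CPM.

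**Figure D3:**
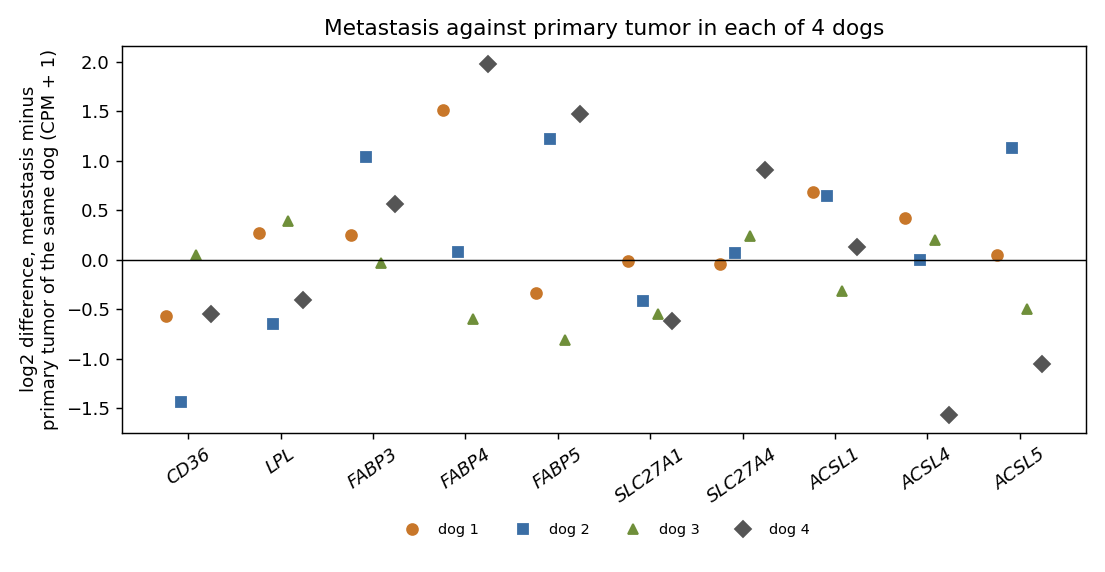
For each gene, 4 points give the log2 difference of CPM plus 1 between the metastasis and the primary tumor of dogs 1 to 4. SLC27A1 is at or below 0 in all 4 dogs, while the other 9 genes have dogs on both sides of 0.

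Against the 4 metastases, HGA again had a positive log2FC in all 10 genes. This comparison uses the same 10 HGA as the one with the primary tumors, so both share their reference samples. Called higher in HGA were 5 genes, LPL, FABP5, ACSL1, ACSL4 and ACSL5. Of all 13195 genes tested, 16.1% were called and 8.4% were called higher in HGA, and the median log2FC of the 10 genes was 2.83. With library size alone the share of called genes that were higher in HGA went from 52.2% to 36.3%, and FABP5 was no longer called. The groups did not overlap in 5 genes, LPL, FABP4, SLC27A1, ACSL1 and ACSL5, as in 16.1% of all genes tested.

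ACSL1 had the largest log2FC here too, 7.42 (SE 0.94, adjusted p = 0.000189), with a mean of 17.5 ± 4.62 CPM in the metastases (SD, n = 4). ACSL5 measured 30.2, 16.2, 6.43 and 12.5 CPM in metastases 1 to 4, and its log2FC was 4.69 (SE 0.72, adjusted p = 0.00119). For ACSL4 the log2FC was 3.28 (SE 0.63, adjusted p = 0.00817), and only HGA 10 was as low as the metastases. LPL measured 1.30, 5.04, 2.25 and 4.15 CPM, with a log2FC of 4.68 (SE 0.93, adjusted p = 0.0109), and its call was lost without metastasis 1 and without metastasis 3.

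FABP5 overlapped, as metastasis 2 at 7.43 CPM was just above HGA 2 at 7.23 CPM, and its log2FC of 2.50 (SE 0.60, adjusted p = 0.0419) was called in 3 of the 14 fits that left out a sample and not in the other 11. FABP4 did not pass, with a log2FC of 2.35 (SE 0.60, adjusted p = 0.0631), although every HGA was above every metastasis. It was called with DESeq2 (adjusted p = 0.00203) and with Benjamini-Hochberg adjustment (adjusted p = 0.00627). CD36 had a log2FC of 3.16 (SE 1.24, adjusted p = 0.637), FABP3 of 1.29 (adjusted p = 1), SLC27A1 of 1.76 (adjusted p = 0.176) and SLC27A4 of 0.47 (adjusted p = 1). Without HGA 10, SLC27A1 was called as well, with a log2FC of 1.28, and 6 genes in all. SLC27A1 was also called with DESeq2, with Benjamini-Hochberg adjustment and in 1 fit over all 25 samples, where the adjusted p was 0.0389, 0.0175 and 0.0303.

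**Figure D4:**
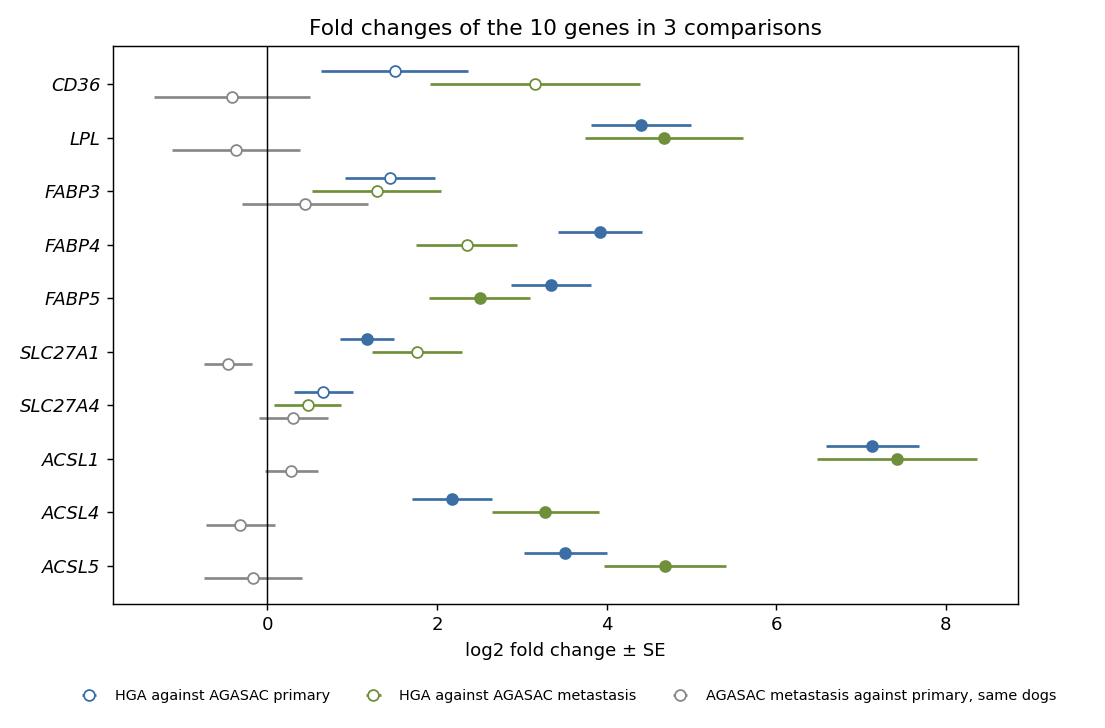
Points give the log2FC and bars the SE of each gene in HGA against AGASAC primary tumors (blue), HGA against AGASAC metastases (green) and metastases against primary tumors of the same dogs (gray), and filled points were called. ACSL1 is farthest from 0 in both comparisons with HGA, at 7.14 and 7.42, and the gray points, which lack FABP4 and FABP5, lie between −0.46 and 0.45.

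Of 78 further genes of fatty acid handling, 70 were in the table and 50 could be tested in HGA against AGASAC primary tumors. Of these, 20 were called higher in HGA, 8 lower, and 22 were not called, with a median log2FC of 0.50. Over all 12070 genes tested, 25.1% were called and 12.6% were called higher in HGA. Counts within a role are small and describe its genes only. The calls ran in both directions within several roles.

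Among the lipases and their partners, 2 of 4 tested were called higher, and LIPA, the acid lipase of lysosomes, was the highest with a log2FC of 3.71 (559 ± 250 against 43.5 ± 14.0 CPM, SD, n = 10 and 11). The caveola gene CAV2 had a log2FC of 2.1, and 2 of 3 caveola genes were called higher. None of the 3 other SLC27 transporters tested was called. GOT2, a mitochondrial aminotransferase that also binds fatty acids at the plasma membrane, was the only further binding protein tested and had a log2FC of 1.1.

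The other acyl-CoA synthetases moved apart. Of 7 tested, 5 were called higher, led by ACSS3 with a log2FC of 3.74 (adjusted p = 1.58e-07), while ACSL3, the synthetase of the endoplasmic reticulum and of nascent lipid droplets, was lower with a log2FC of −2.38 (59.2 ± 32.0 against 316 ± 155 CPM, adjusted p = 1.80e-05). Among genes of acyl-CoA binding and hydrolysis, the thioesterase ACOT4 was higher, with a log2FC of 4.92, and DBI, the acyl-CoA binding protein, was lower, with −2.74 (17.6 ± 8.00 against 121 ± 48.1 CPM, SD, n = 10 and 11).

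The carnitine shuttle, which carries acyl groups into mitochondria for oxidation, had 4 genes called lower and 2 higher of 8 tested. CROT, the peroxisomal octanoyltransferase, had a log2FC of −2.74, and the carnitine palmitoyltransferases of the outer mitochondrial membrane were lower as well, CPT1A with −2.67 and CPT1B with −2.66, as was the related CPT1C of the endoplasmic reticulum with −2.29. CPT2, which acts on the inner membrane, was higher with 2.2.

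Of the genes that build glycerolipids, 3 of 13 tested were called higher and 1 lower, which is not far from the 25.1% called over all genes. DGAT2, which makes triglycerides from diacylglycerol, had the largest log2FC of the list, 5.69 (86.0 ± 86.0 against 1.67 ± 1.17 CPM, adjusted p = 9.10e-07), and the phosphatase LPIN2 was lower with −2.33. Of the genes of triglyceride release, G0S2, an inhibitor of adipose triglyceride lipase, was higher with 4.04, and PNPLA2, that lipase itself, was lower with −1.02 (adjusted p = 0.0472).

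**Figure D5:**
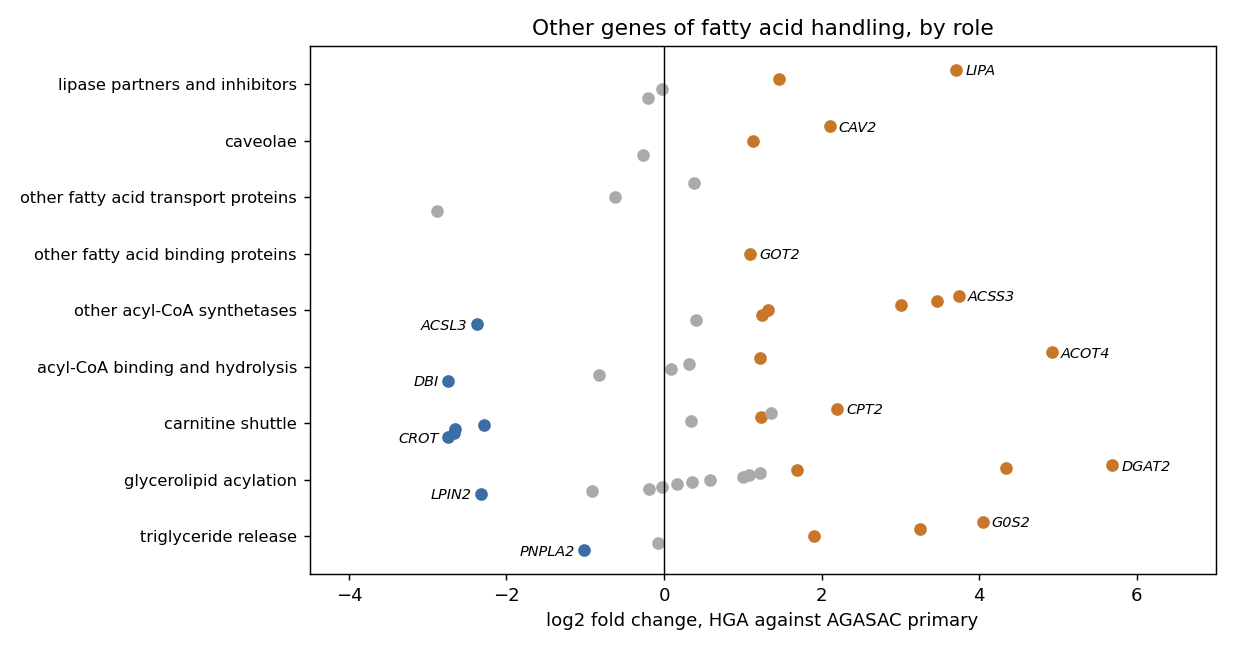
Each point is 1 of the 50 tested genes of fatty acid handling outside the 10, placed by its log2FC in HGA against AGASAC primary tumors and grouped by role, with called genes in orange (higher in HGA) or blue (lower) and the rest in gray. The largest rise and fall called in each role are named, from DGAT2 at 5.69 to CROT and DBI at −2.74.

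In the metastases against their primary tumors, 0 of the 47 genes of this list that were tested were called with edgeR. In HGA against metastases, 16 of 53 were called higher and 6 lower, with a median log2FC of 0.89. Over all genes tested there, 16.1% were called and 8.4% were called higher in HGA. The genes with the largest log2FC and counts in the metastases were ACOT4 with 5.65, DGAT2 with 5.50, AGPAT4 with 5.46 and ACSBG1 with 4.25. PNPLA3, a lipid droplet hydrolase, was called too and had 0 counts in all 4 metastases. In HGA it ran from 0 CPM in HGA 8 to 36.1 CPM in HGA 9, and its mean of 11.7 ± 11.0 CPM (SD, n = 10) was at least 12.6-fold higher than 3 counts per library.

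Within the tumor types, each gene was set against 10262 others over the 21 primary tumors, after the mean of its tumor type was taken off. These correlations are descriptions over samples that share batches and depth. ACSL1 was most like AGPS, a peroxisomal enzyme of ether lipid synthesis (Pearson r = 0.890), followed by KRT79 and FBXO27. Without HGA 10 and HGA 2, r was 0.552 with AGPS and 0.337 with KRT79. No AGASAC primary tumor had a count of KRT79, so its likeness rests on HGA alone, and GLRA3, named beside LPL, also had no spread there. For ACSL4 the nearest were CST6 (r = 0.866, and 0.669 without HGA 10 and AGASAC 7), WDR1 and TMED9. ACSL5 was nearest to NUP133 (r = 0.810, and 0.702 without HGA 10 and AGASAC 7), MRPS26 and LOC111092242. SLC27A1 was nearest to CRELD1 (r = 0.847), PLXNA2 and COL7A1. Without HGA 10 and HGA 6, r with these was 0.749, 0.638 and 0.551.

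LPL was nearest to CXCL14 (r = 0.755), PINLYP and GLRA3, and CD36 to CCDC149 (r = 0.745) and CRYZ. The binding proteins had FAM177A1 (r = 0.762), CSRNP1 and COQ10B nearest to FABP4, ZADH2 (r = 0.716), C17H2orf68 and PCDH7 nearest to FABP5, and BDH2 (r = 0.734), PIH1D1 and RABEPK nearest to FABP3. Without AGASAC 7 and AGASAC 11, r with FABP5 was 0.664 for ZADH2, 0.705 for C17H2orf68 and 0.385 for PCDH7. SLC27A4 was nearest to RFFL (r = 0.752, and 0.601 without HGA 10 and AGASAC 9), NECTIN4 and FAM3D. None of the 10 genes was among the 3 nearest of another.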

How the data were processed

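Count data of 25 FFPE tumor samples were taken from 1 table. The authors trimmed the QuantSeq 3′ reads with Cutadapt, aligned them with STAR to CanFam3.1 and counted them per gene in rounds of featureCounts with the annotation extended by 2 kb at the 3′ end, splitting multi-mapped reads evenly, and the deposited values are whole read counts per gene and sample without normalization. The table also holds 25 columns of normalized counts and 5 of the authors' own comparison (mean, fold change, its error, p and adjusted p), and none of these was used. No genome of the same build was at hand, so no positions or sequences are given.

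Samples were grouped by the labels. Each comparison was fitted on its own samples in R 4.3.3 with edgeR 4.0.16: filterByExpr (minimum count 10, minimum total 15), TMM scaling and the quasi-likelihood test, with p adjusted after Benjamini and Yekutieli over all genes tested. The SE was taken as the size of the log2FC over the root of its F statistic. Members of the gene family, marker and pathway lists were chosen with earlier results of these data known. Named beside the 10 genes were, per role of the pathway list, the called gene with the largest rise and fall in HGA against AGASAC, in the other comparisons up to 5 called, per marker list the 3 with the highest mean CPM, and per gene the 3 most correlated of those with a mean of at least 10 CPM. CPT1A, CPT1B, CPT1C, FABP2, LIPC and the ADIPOQ values by sample were added after they were seen, as were CD2, CD3D, CD3E, CD3G, CD5 and the remaining adipocyte markers. The replicate numbers of metastases and primary tumors mark the same dog by the labels, and in 4 of 4 dogs the metastasis correlated best with its own primary tumor (0.426 to 0.724 across genes). A chi-square test of all sample pairs within groups found 0 duplicates. DESeq2 1.42.0 and other scalings, filters, adjustments and sample sets were tried as alternatives. The scripts were tested on simulated data. Samples are separate tumors, and floors cover counting error only. The list of lymphocyte markers as a whole and 1 correlated gene are not reported here.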

Additional observations from a re-analysis of the deposited data

Results flagged for a closer look

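Of 20 tests of the highest or lowest sample of a gene in HGA or metastases, 4 found a value far from its group. All 4 were in HGA. Chance gives about 1 in 20 only where values are normally distributed. CPM of flagged genes were skewed in HGA, with a mean of 141 and a median of 59.1 for CD36. For FABP3 they were 9.94 and 7.34, so the 4 of 20 cannot be set against that rate. HGA 10 held 2 of the 4 flagged values, ACSL5 at 1475 CPM, with the next HGA at 463 CPM, and SLC27A1 at 152 CPM, with the next at 54.2 CPM. HGA 6 stood out in CD36 at 543 CPM, with the next at 272 CPM. HGA 9 stood out in FABP3 at 39.0 CPM, with the next at 13.7 CPM. The rule was run on CPM only, so the flags hold for that scale. In log2 CPM, HGA 6 was at 9.09 in CD36, with the next at 8.09 and the lowest at 2.03. HGA 10 was not flagged in ACSL1, at 6.33 in log2 CPM, with the next lowest at 10.4. In ACSL5 HGA 10 was at 10.5 in log2 CPM, with the next at 8.86, and in SLC27A1 at 7.26, with the next at 5.78. The 11 AGASAC primary tumors were not tested in this way, since the rule covers groups of 4 to 10.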

How the results depend on the processing

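Under the alternatives, 311 of 345 values of the 10 genes in HGA against AGASAC primary tumors kept their direction and call, 31 lost the call, 3 gained it and 0 changed sign. Most of these values are not other ways of processing, as 21 fits per gene each left out 1 tumor and 13 or 14 used another setting. In HGA against metastases 184 of 205 kept both, 15 lost the call, 6 gained it and 0 changed sign. Here 14 fits per gene left out 1 sample and 6 or 7 used another setting. With at least 10 counts required in every sample, 1452 genes and 4 of the members were called in HGA against AGASAC primary tumors and 1153 genes and 3 members in HGA against metastases, where fewer genes could be tested. Within RNA extraction batches 5, 6 and 8, with fewer samples, 262, 637 and 338 genes and 2, 3 and 1 members were called. Benjamini-Hochberg adjustment called 3536 genes in HGA against metastases. Leaving out a sample there gave 3 members called without metastasis 1 or without metastasis 3 and 6 without HGA 10.

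In metastases against primary tumors, DESeq2 called 5 genes and the paired fit with the dog as replicate block called 1, neither of which moved the call of a member. Here 7 of 125 values changed sign, all of them not called. Leaving out a sample moved the log2FC of CD36 from −0.90 to 0.23, of LPL from −0.71 to 0.22, of ACSL4 from −0.57 to 0.043 and of ACSL5 from −0.62 to 0.15, and against all 11 primary tumors ACSL1 was at −0.30. The cause was not tested. LPL, FABP3, FABP4 and FABP5 had at most 28 counts in any AGASAC sample.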

Other observations

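FABP2, the intestinal fatty acid binding protein, was not tested because too few samples held it, and it is named here after its values were seen. In AGASAC primary tumors 1 to 4, those with a sampled metastasis, it measured 0.301, 0.327, 0.890 and 0.834 CPM, and in their metastases 0.649, 2.39, 1.29 and 0.958 CPM. In AGASAC primary tumors 5 to 11 it ran from 88.8 CPM through a median of 216 CPM to 504 CPM. The lowest of these 7 tumors was thus far above every other AGASAC sample, and the 10 HGA reached at most 2.88 CPM. All 7 come from a different series of sequencing file names than AGASAC primary tumors 1 to 3, and the series of AGASAC 4 is not given. Whether a sampled metastasis or the file name series goes with FABP2 cannot be told apart. HGA 10, from the same file name series as those 7, had 0 counts of FABP2. So did HGA 3, HGA 4, HGA 7 and HGA 9, which are from the other series.

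LIPC, hepatic lipase, was not tested against HGA because too few samples held enough of it, and it was likewise named after its values were seen. Between metastases and primary tumors of the same dogs it was tested with edgeR and not called, with a log2FC of 0.50 (SE 1.51, adjusted p = 1). It averaged 0.490 ± 0.588 CPM in HGA (SD, n = 10), ran from 0.297 CPM through 21.02 CPM to 239 CPM in AGASAC primary tumors, and measured 131, 19.4, 1.93 and 4.79 CPM in metastases 1 to 4. The primary tumors of these dogs measured 90.7, 18.0, 0.297 and 1.11 CPM, so dog 1 was high and dogs 3 and 4 were low in both tissues.

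ADIPOQ measured 219 CPM in AGASAC 5, 190 CPM in AGASAC 6, 130 CPM in AGASAC 8 and 399 CPM in AGASAC 11, and at most 37.6 CPM in the other 7 AGASAC primary tumors. In AGASAC 11, CIDEC was at 0.486 CPM and LPL at 1.21 CPM beside it.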
